A study of Mus musculus with 22 samples.

Results

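The nuclear-encoded subunits of the respiratory chain and of ATP synthase were examined in subcutaneous loose connective tissue from the trunk of mice. Members were the genes whose symbol names a subunit of complex I (Nduf), complex II (Sdha to Sdhd), complex III (Uqcr and Cyc1), complex IV (Cox4 to Cox8, with Ndufa4) or complex V (Atp5), together with cytochrome c (Cycs). Assembly factors and the striated muscle isoforms Cox6a2, Cox7a1 and Cox8b were left out by the rule. This gave 78 of 12393 measured genes: 33 of complex I, 4 of complex II, 9 of complex III, 14 of complex IV, 17 of complex V and Cycs. A gene with several probes was read from its brightest one, averaged across the samples.

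All animals were male C57BL/6 mice of 19 to 24 g, and no allele, transgene or drug is named for any group. Each animal gave a piece of tissue that was stretched and a piece that was shortened, assigned at random. The tissue was held in vivo in 7 animals and ex vivo in 4 other animals, which gives 22 samples in 4 groups. Stretch force, stretch duration and the age of the mice are not in the labels used here, and the tissue was measured whole, so it holds every cell type of the piece.

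The respiratory chain sits in the inner mitochondrial membrane and passes electrons from NADH, through complex I, and from succinate, through complex II, to ubiquinone, complex III, cytochrome c and complex IV, where oxygen is reduced. Complexes I, III and IV move protons out of the matrix, and ATP synthase, complex V, lets them flow back to make ATP. Fibroblasts and white fat cells hold fewer mitochondria than muscle fibres, and many nuclear genes of the chain share binding sites for the factors NRF1, GABP (an ETS factor) and YY1 in their promoters.

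Values were log2 signals, which are signals per probe and allow no comparison between genes. Of the 78 probes, 73 had a mean of at least 9 over all samples, 4 (Ndufb1, Cox6b2, Cox7c and Cox8c) lay between 6 and 9, and Cox4i2 lay under 6, where signals are dim. The sample medians over all probes ran from 7.29 to 7.42 in vivo and from 6.85 to 6.90 ex vivo, so the settings looked normalized apart. Fibroblast markers such as Col1a1 and Pdgfra were bright, with list means of 12.20 to 12.76 in vivo and 10.98 to 11.52 ex vivo. The skeletal muscle list ranged widely, from 5.20 to 11.86 in shortened and 5.16 to 12.49 in stretched samples in vivo, and from 5.31 to 6.21 and 5.11 to 11.63 ex vivo. The stretched in vivo sample of animal 1 stood apart with the lowest mean over the members, 10.76 against 11.14 to 11.41 in the other stretched in vivo samples. Its values are included, and the results without this animal are given beside those they touch.

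Promoter sequence is shown for 5 members on which the results below turn: cytochrome c, a pair of complex II subunits, and the subunits that stood highest and lowest among bright probes in the ex vivo stretch comparison. The windows hold 250 bases before and 50 bases after an annotated start of the gene, 5′ to 3′ on the gene's strand, from RefSeq on the build GRCm38.p6. For Atp5g1 that start lies inside the gene, whose outer end on the minus strand is at 96075694. Cycs is on the minus strand at chr6:50566520-50566819, Sdhb on the plus strand at chr4:140961021-140961320, Sdhd on the minus strand at chr9:50603800-50604099, Atp5g1 on the minus strand at chr11:96075582-96075881 and Cox7a2l on the minus strand at chr17:83514284-83514583. Capitals mark matches to the NRF1 core GCGCATGC, the ETS motif CCGGAAG, the YY1 motif AAGATGGC or the cyclic AMP response element TGACGTCA, on either strand.
Cycs: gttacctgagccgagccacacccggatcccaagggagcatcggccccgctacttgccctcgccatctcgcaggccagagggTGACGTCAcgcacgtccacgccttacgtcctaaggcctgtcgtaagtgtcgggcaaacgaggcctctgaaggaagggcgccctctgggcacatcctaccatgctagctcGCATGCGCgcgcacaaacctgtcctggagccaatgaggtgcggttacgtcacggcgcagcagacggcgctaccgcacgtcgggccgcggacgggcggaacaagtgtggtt
Sdhb: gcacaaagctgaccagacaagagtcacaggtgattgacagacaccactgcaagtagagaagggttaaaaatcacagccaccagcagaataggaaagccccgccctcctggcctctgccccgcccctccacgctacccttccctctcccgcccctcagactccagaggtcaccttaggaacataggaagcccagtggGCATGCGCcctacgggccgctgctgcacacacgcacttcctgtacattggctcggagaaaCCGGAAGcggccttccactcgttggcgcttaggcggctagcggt
Sdhd: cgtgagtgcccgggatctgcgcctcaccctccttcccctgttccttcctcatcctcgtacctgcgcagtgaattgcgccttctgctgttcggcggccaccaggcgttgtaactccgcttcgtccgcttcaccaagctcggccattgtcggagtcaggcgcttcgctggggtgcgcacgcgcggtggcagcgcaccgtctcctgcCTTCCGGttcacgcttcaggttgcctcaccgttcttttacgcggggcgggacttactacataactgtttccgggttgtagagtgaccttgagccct
Atp5g1: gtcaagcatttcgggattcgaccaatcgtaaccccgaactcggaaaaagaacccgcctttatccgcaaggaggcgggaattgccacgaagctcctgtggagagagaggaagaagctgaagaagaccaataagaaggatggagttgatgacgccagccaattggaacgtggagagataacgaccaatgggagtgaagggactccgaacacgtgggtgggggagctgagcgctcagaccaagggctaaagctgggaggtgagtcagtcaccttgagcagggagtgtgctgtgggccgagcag
Cox7a2l: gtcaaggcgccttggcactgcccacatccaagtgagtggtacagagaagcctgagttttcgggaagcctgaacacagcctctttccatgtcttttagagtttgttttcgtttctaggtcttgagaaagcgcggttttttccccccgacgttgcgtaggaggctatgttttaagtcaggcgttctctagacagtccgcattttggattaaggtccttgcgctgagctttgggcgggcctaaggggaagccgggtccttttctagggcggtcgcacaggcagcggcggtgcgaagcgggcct

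Cycs held an NRF1 core and a cyclic AMP response element, Sdhb an NRF1 core and an ETS motif, and Sdhd an ETS motif, while the windows of Atp5g1 and Cox7a2l held none of the 4. Windows were found for 64 of the 78 members, 69 windows in all. The NRF1 core was in 14.5% of them and in 2.71% of all 32851 windows. The ETS motif was in 24.6% against 8.86%, YY1 in 13.0% against 2.75% and the cyclic AMP response element in 5.80% against 1.79%. The member windows with an NRF1 core belonged to Atp5g2, Atp5k, Atp5l, Cox6a1, Cycs, Ndufa6, Ndufa8, Sdhb, Uqcr11 and Uqcrc1. The SP1 motif GGGCGG differed less, 42.0% against 35.7%, the AAGGTCA site of oestrogen-related receptors was in 10.1% against 4.72%, and TATAAA in 10.1% against 13.6%. Motifs may overlap one another, as GGGCGG may with other GC-rich motifs. These are letter matches and say nothing of binding in this tissue.

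The in vivo comparison asked how subunit expression differed between stretched and shortened tissue of the same animal. None of the 78 subunits passed the threshold of an adjusted p of 0.05, and neither did any other probe (0% of 22626 called). Most subunits nonetheless had a higher mean in stretched tissue, by a small amount: 76 of 78, with a median log2 difference of 0.15, or 1.11-fold. Over all probes the median was -0.02 and 43.7% were higher, and over probes with a mean of at least 9 these were -0.04 and 35.7%. The lowest adjusted p among the subunits was 0.172 and over all probes 0.153 (limma, Benjamini-Hochberg). At an unadjusted p under 0.05, 48 subunits (61.5%) were higher, against 7.95% of all probes, and 1, Cox6b2, was lower, against 11.4%. The subunits were measured in the same samples, so these counts are not independent observations.

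**Figure D1:**
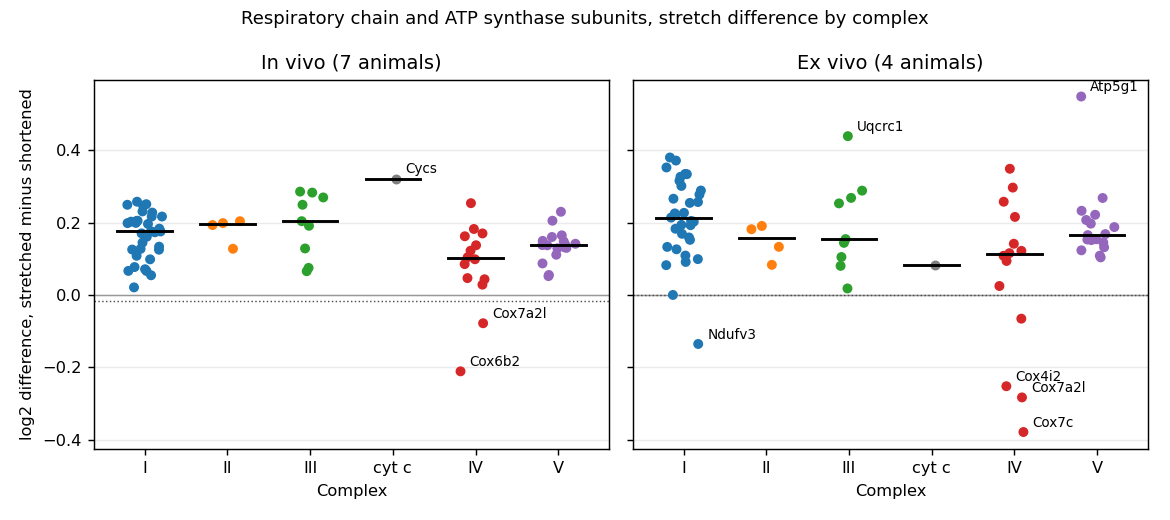
Log2 difference of each subunit between stretched and shortened tissue (y axis) by complex (x axis), in vivo with 7 animals and ex vivo with 4; each point is a gene, bars are medians and the dotted line is the median of all probes. Most points lie above 0 in both settings, with medians of 0.10 to 0.20 in vivo and 0.11 to 0.21 ex vivo for the 5 complexes. The lowest points, Cox6b2 in vivo and Cox7c ex vivo, belong to complex IV and to dim probes.

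The same small difference ran through the complexes. Complex I had a median of 0.18 with 33 of 33 subunits higher, complex II 0.20 with 4 of 4, complex III 0.20 with 9 of 9, complex IV 0.10 with 12 of 14 and complex V 0.14 with 17 of 17. The number at an unadjusted p under 0.05 was 23 in complex I, 4 in complex II, 6 in complex III, 4 in complex IV and 10 in complex V.

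In complex I the lowest p belonged to Ndufa9, an accessory subunit where the arms of the complex meet. Its log2 signal ran from 10.19 to 10.81 in shortened tissue (median 10.63) and from 10.20 to 10.97 in stretched tissue (median 10.82), so the groups overlapped. The difference was 0.20 ± 0.06 (SE, n = 7 animals; adjusted p = 0.174), higher in 6 of 7 animals. Of the catalytic subunits, the NADH-binding Ndufv1 differed by 0.22 ± 0.08 and the iron-sulfur subunit Ndufs1 by 0.25 ± 0.08. The membrane arm subunits Ndufb3 and Ndufb7 differed by 0.25 ± 0.08 and 0.17 ± 0.05, and the accessory subunit Ndufa6 by 0.02 ± 0.04, the least of the complex.

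Complex II, succinate dehydrogenase, also works in the citric acid cycle. Its flavoprotein Sdha, which oxidises succinate, ran from 11.30 to 11.87 in shortened tissue (median 11.76) and from 11.23 to 12.04 in stretched tissue (median 11.94), a difference of 0.20 ± 0.07 (adjusted p = 0.179). The iron-sulfur subunit Sdhb differed by 0.20 ± 0.07 and the membrane anchor Sdhc by 0.19 ± 0.06. Sdhd, the other membrane anchor, ran from 11.17 to 11.54 in shortened tissue (median 11.38) and from 11.28 to 11.76 in stretched tissue (median 11.46). The groups overlapped, but the stretched piece was the higher one in 7 of 7 animals. Sdhd was the 1 subunit of the 78 (1.3%) with that pattern, which 1.34% of all probes showed, and its difference of 0.13 ± 0.04 did not pass the test (adjusted p = 0.176).

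In complex III and cytochrome c the differences reached 0.32. Cytochrome c itself, the mobile carrier between complexes III and IV, ran from 10.55 to 11.61 in shortened tissue (median 11.22) and from 10.49 to 11.93 in stretched tissue (median 11.57). It differed by 0.32 ± 0.11 (adjusted p = 0.181) and the stretched piece was higher in 5 of 7 animals, with pair differences of -0.07 to 0.84. Cyc1, the cytochrome c1 subunit that hands electrons to it, differed by 0.28 ± 0.09, the Rieske iron-sulfur protein Uqcrfs1 by 0.25 ± 0.09 and the core protein Uqcrc1 by 0.19 ± 0.07. Of the small subunits, Uqcrq differed by 0.27 ± 0.09, Uqcr11 by 0.29 ± 0.11 and Uqcrb by 0.07 ± 0.05.

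Complex IV varied most among its members. These include Cox6b2, Cox7c, Cox8c and Cox4i2, whose dim probes had means of 6.21, 6.66, 7.295 and 5.45 over all samples. Ndufa4, once counted as a complex I subunit, ran from 10.78 to 11.40 in shortened tissue (median 11.12) and from 10.77 to 11.90 in stretched tissue (median 11.38), a difference of 0.25 ± 0.10 (adjusted p = 0.204), above 0 in 4 of 7 animals. The subunits nearest to the catalytic core differed less, Cox4i1 by 0.10 ± 0.05, Cox5a by 0.18 ± 0.07 and Cox5b by 0.16 ± 0.06. Cox8a differed by 0.17 ± 0.08, Cox6b1 by 0.14 ± 0.06, Cox7a2 by 0.12 ± 0.06 and Cox6a1 by 0.09 ± 0.04. The values that went the other way were those of Cox6b2 and Cox7a2l. Cox6b2, the testis form of its subunit, differed by -0.21 ± 0.08 (adjusted p = 0.206). Cox7a2l, a gene linked to supercomplexes of complexes III and IV, differed by -0.08 ± 0.04 (adjusted p = 0.281). Its function in these mice was not examined. Cox4i2, the form of subunit IV known from lung and low oxygen, differed by 0.05 ± 0.06 and the testis form Cox8c by 0.03 ± 0.05.

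In ATP synthase the catalytic beta subunit Atp5b had the lowest p of all members. It ran from 12.05 to 12.60 in shortened tissue (median 12.47) and from 12.08 to 12.96 in stretched tissue (median 12.70), and was higher in 6 of 7 animals by 0.21 ± 0.05 on average (adjusted p = 0.172). The alpha subunit Atp5a1 differed by 0.13 ± 0.06, the rotor subunits Atp5c1 and Atp5d by 0.23 ± 0.07 and 0.16 ± 0.05, and the stalk subunit Atp5h by 0.05 ± 0.04. The 3 genes for the c ring, Atp5g1, Atp5g2 and Atp5g3, which encode the same mature protein, differed by 0.14 ± 0.08, 0.06 ± 0.08 and 0.14 ± 0.05.

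The differences of the subunits did not come evenly from the animals. The median over the subunits was -0.06 in animal 1, 0.24 in animal 2, 0.38 in animal 3, 0.09 in animal 4, 0.38 in animal 5, 0.03 in animal 6 and 0.03 in animal 7. Animals 2, 3 and 5 thus had medians of at least 0.24, and the other animals lay at or under 0.09. Leaving out animal 2, 3 or 5 lowered the 48 subunits at an unadjusted p under 0.05 to 21, 23 or 19, and leaving out animal 1 raised them to 60 and the median from 0.15 to 0.19. Without animal 1 the lowest adjusted p was 0.0822, and 76 subunits were still higher. The shares of all probes at an unadjusted p under 0.05 in the fits with an animal left out are not given here.

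Markers of several cell types differed alongside the subunits. The skeletal muscle list was higher in stretched tissue for 16 of 16 genes, with a median of 2.19, and its mean differed by -0.04, 1.06, 1.70, 0.00, 5.76, 3.92 and 1.97 in animals 1 to 7. The white adipocyte list was higher for 10 of 10 genes with a median of 0.50, and by animal differed by -0.50, 1.00, 0.97, 0.52, 0.55, 0.02 and 0.26. Its mean ran from 9.50 to 11.95 in shortened and from 8.996 to 12.35 in stretched samples. The endothelial list differed by -0.40, 0.67, 0.92, 0.57, 0.45, 0.28 and -0.37, running from 7.93 to 8.98 and from 7.53 to 9.44, with 5 of 6 genes higher. Of the fibroblast and macrophage lists, 0 of 10 and 0 of 9 genes were higher. The slow muscle fibre list (median -0.31, 0 of 7 higher), brown adipocyte list (0.07, 3 of 5), Schwann cell list (-0.25, 0 of 3) and keratinocyte list (0.16, 3 of 5) were measured as well. None of these marker genes passed the test.

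When the fit held the muscle list mean as a covariate, the subunit median was 0.08, 67 of 78 were higher and 0 had an unadjusted p under 0.05. Without animals 5 and 6, whose pieces differed most in the muscle list, the median was 0.13, with 75 higher and 15 at an unadjusted p under 0.05. The shares of all probes at that p in both fits are not given here. In animals 4, 5 and 6, the muscle list differed by 0.00, 5.76 and 3.92 while the subunit medians were 0.09, 0.38 and 0.03. The separate slow muscle fibre list differed by -2.25 in animal 4, against -0.17 to 0.31 in the other animals, and was not part of the covariate. The part of the adipocyte and endothelial content in the result was not tested. In whole tissue, fewer cells of a type and less RNA per cell cannot be told apart.

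**Figure D2:**
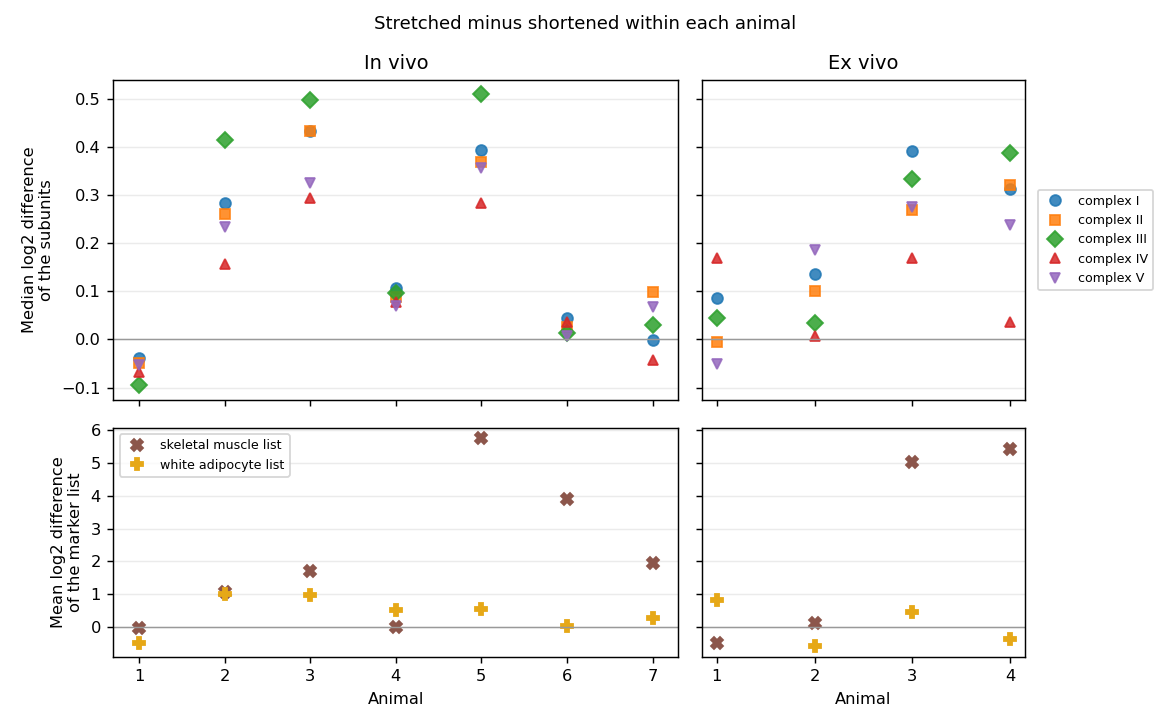
Within-animal differences, stretched minus shortened, by animal (x axis; in vivo 7, ex vivo 4): the median log2 difference of the subunits of each complex (top) and the mean log2 difference of the skeletal muscle and white adipocyte marker lists (bottom). In vivo the complexes move together by animal, with animals 2, 3 and 5 highest. Ex vivo animals 3 and 4 are highest in complexes I, II, III and V, and the muscle list is 5.03 and 5.43 higher in them. Complex IV departs from this ex vivo, with 0.17, 0.01, 0.17 and 0.04 in animals 1 to 4.

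The 3′ to 5′ difference of the Gapdh control probes, a measure of RNA integrity, was 0.11 to 0.27 in the in vivo samples of animals 1 to 3 and 0.87 to 3.61 in those of animals 4 to 7. The subunit median was 0.18 within animals 1 to 3 and 0.14 within animals 4 to 7. The stretched-minus-shortened change of this measure was 0.01, 0.06 and 0.11 in animals 1 to 3 and 0.78, -0.91, 0.49 and -2.10 in animals 4 to 7, and its part in the result was not tested further.

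The ex vivo comparison asked the same of tissue held outside the animal. Here too 0 subunits and 0% of all probes passed the test (lowest adjusted p 0.352), and 73 of 78 subunits were higher in stretched tissue, with a median of 0.18, or 1.13-fold. Over all probes the median was 0.00 and 50.4% were higher, and over probes with a mean of at least 9 they were 0.01 and 52.5%. At an unadjusted p under 0.05, 31 subunits (39.7%) were higher, against 5.23% of all probes, and 0 were lower, against 5.85%. In every animal the stretched piece was the higher one for 34 subunits (43.6%), against 10.8% of all probes. For 18 subunits (23.1%) every stretched sample lay above every shortened sample, against 2.8% of all probes. In vivo 0 subunits and 0.00442% of all probes were separated in that way.

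By complex the medians were 0.21 in complex I with 32 of 33 subunits higher, 0.16 in complex II with 4 of 4, 0.15 in complex III with 9 of 9, 0.11 in complex IV with 10 of 14 and 0.17 in complex V with 17 of 17. The subunits that were higher in 4 of 4 animals numbered 14 in complex I, 1 in complex II, 6 in complex III, 5 in complex IV and 8 in complex V.

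The largest difference belonged to Atp5g1, a c ring gene of ATP synthase. Its log2 signals were 9.50, 9.22, 9.07 and 9.16 in shortened tissue of animals 1 to 4 and 9.61, 9.68, 9.92 and 9.94 in stretched tissue. The groups did not overlap, and the difference was 0.55 ± 0.14 (SE, n = 4 animals; adjusted p = 0.363). The other c ring genes were higher in 4 of 4 animals as well, Atp5g2 by 0.17 ± 0.07 and Atp5g3 by 0.19 ± 0.06. Atp5j2, subunit f of the membrane part, differed by 0.27 ± 0.07 and Atp5d by 0.20 ± 0.07. The catalytic subunits differed less, Atp5b by 0.15 ± 0.11 and Atp5a1 by 0.15 ± 0.12, and Atp5md, a small membrane subunit, by 0.10 ± 0.07, the least of the complex.

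Uqcrc1, the core protein of complex III, read 9.96, 10.23, 9.69 and 9.93 in shortened tissue and 10.56, 10.33, 10.23 and 10.45 in stretched tissue. The lowest stretched and the highest shortened sample were level at this rounding, and the difference was 0.44 ± 0.10 (adjusted p = 0.363). Its pair difference was 0.09 in animal 2 and 0.52 to 0.60 in the others. Uqcrq differed by 0.29 ± 0.10, Cyc1 by 0.27 ± 0.10, Uqcrb by 0.15 ± 0.05, Uqcrfs1 by 0.10 ± 0.10 and the hinge protein Uqcrh by 0.02 ± 0.07.

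In complex I, Ndufa5, an accessory subunit of the peripheral arm, read 9.57, 9.01, 9.14 and 9.31 in shortened tissue and 9.89, 9.40, 9.58 and 9.70 in stretched tissue. The groups overlapped through animal 1, while each pair differed by 0.31 to 0.44, and the mean difference was 0.38 ± 0.08 (adjusted p = 0.352). Ndufb7 read 10.52, 10.22, 10.19 and 10.44 in shortened and 10.94, 10.59, 10.54 and 10.62 in stretched tissue. These groups did not overlap, and the difference was 0.33 ± 0.07 (adjusted p = 0.352). Ndufa12, an accessory subunit near the NADH-binding part, differed by 0.37 ± 0.10, Ndufs1 by 0.33 ± 0.12 and Ndufv1 by 0.29 ± 0.11. Ndufv3, an accessory subunit beside Ndufv1, went the other way by -0.14 ± 0.11.

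**Figure D3:**
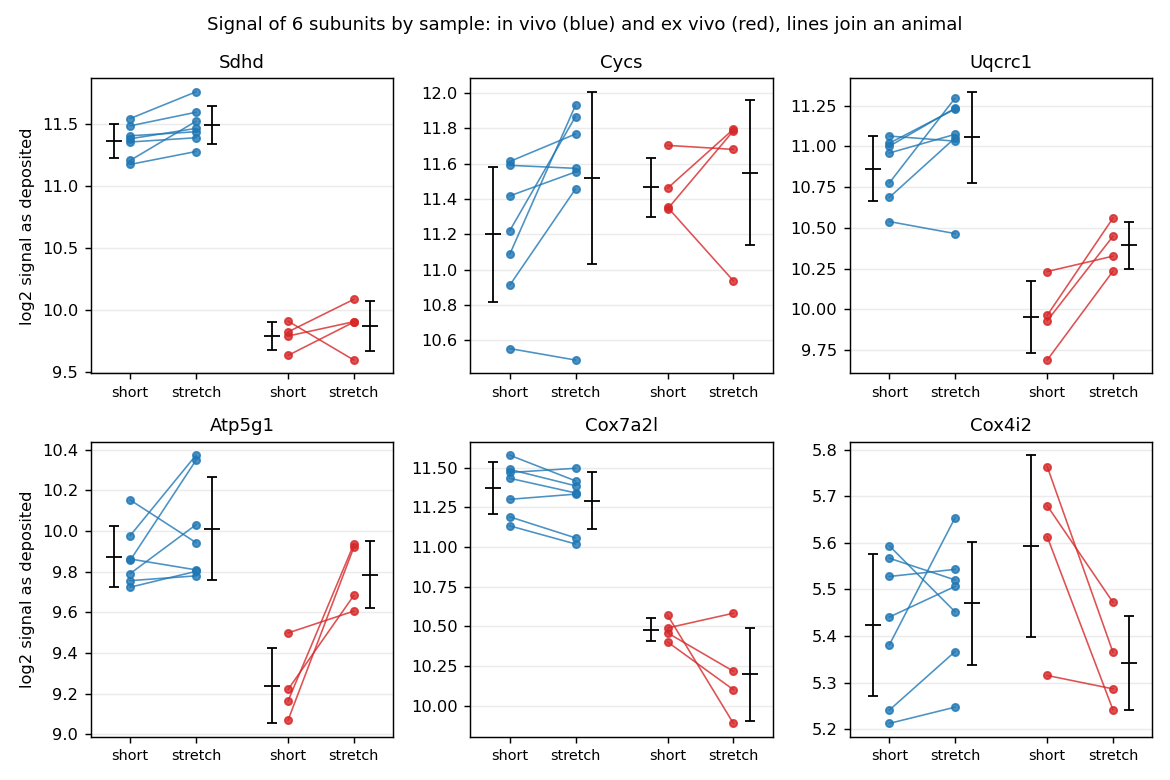
Log2 signal (y axis) of Sdhd, Cycs, Uqcrc1, Atp5g1, Cox7a2l and Cox4i2 in each sample, shortened and stretched (x axis), in vivo in blue and ex vivo in red; lines join the pieces of an animal, bars are group means and whiskers are 1 SD. Sdhd is higher in the stretched piece in 7 of 7 animals in vivo, Atp5g1 and Uqcrc1 in 4 of 4 ex vivo, and Cox4i2 lower in 4 of 4 ex vivo; each panel has its own y axis, which does not start at 0.

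Complex IV was again the most mixed, with its dim probes included. Cox5b, a zinc-binding subunit, read 11.98, 11.88, 11.73 and 11.91 in shortened and 12.19, 12.08, 12.07 and 12.19 in stretched tissue. The groups did not overlap, and the difference was 0.26 ± 0.06 (adjusted p = 0.352). Ndufa4 differed by 0.35 ± 0.10, from 10.25 to 10.60 in shortened and from 10.70 to 10.87 in stretched tissue, also without overlap. Cox5a differed by 0.30 ± 0.11, Cox6b1 by 0.22 ± 0.07, Cox8a by 0.12 ± 0.08, Cox7a2 by 0.12 ± 0.06, Cox6a1 by 0.11 ± 0.07 and Cox4i1 by 0.09 ± 0.08.

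The values that lay below 0 were those of Cox7a2l, Cox7c, Cox4i2 and Cox8c, all but Cox7a2l on dim probes. Cox7a2l read 10.49, 10.46, 10.57 and 10.40 in shortened and 10.58, 10.22, 9.89 and 10.10 in stretched tissue. The groups overlapped through animal 1, and the difference was -0.28 ± 0.13 (adjusted p = 0.471), with all 3 probes of the gene below 0. Cox7c, a small subunit whose probe was dim, differed by -0.38 ± 0.16. Cox4i2 read 5.32, 5.68, 5.61 and 5.76 in shortened and 5.29, 5.47, 5.24 and 5.37 in stretched tissue, a difference of -0.25 ± 0.11 (adjusted p = 0.458) that was below 0 in 4 of 4 animals at dim signals. Cox8c differed by -0.07 ± 0.10 and Cox6b2 by 0.02 ± 0.14.

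In complex II, Sdhb read 9.98, 9.97, 9.78 and 9.93 in shortened and 10.03, 10.07, 10.05 and 10.27 in stretched tissue. The groups did not overlap, and the difference was 0.19 ± 0.08 (adjusted p = 0.465). Sdhc differed by 0.18 ± 0.10 and Sdha by 0.13 ± 0.10. Sdhd read 9.91, 9.82, 9.63 and 9.79 in shortened and 9.60, 10.09, 9.90 and 9.91 in stretched tissue, a difference of 0.08 ± 0.12. Cycs read 11.35, 11.70, 11.34 and 11.46 in shortened and 10.94, 11.68, 11.79 and 11.80 in stretched tissue. It differed by 0.08 ± 0.14, with animals 1 and 2 below 0 and animals 3 and 4 above it.

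The subunit medians of animals 1 to 4 were 0.07, 0.12, 0.32 and 0.27, and the muscle list differed by -0.49, 0.11, 5.03 and 5.43 in the same animals, higher for 16 of 16 genes on average with a median of 2.51. With muscle content as a covariate the subunit median was 0.095, with 61 of 78 higher and 7 at an unadjusted p under 0.05. The share of all probes at that p is not given for this fit or for the fits without animals that follow. Without animals 3 and 4 these were 0.09, 61 and 1, and leaving out animal 3 or animal 4 alone lowered the 31 subunits at an unadjusted p under 0.05 to 11 or 12. Leaving out animal 1, which had the lowest subunit median, raised them to 44 and the median to 0.24. Without that animal 4 subunits were lower at that p, against 0 with all animals. The stretched piece of animal 1 had a Gapdh 3′ to 5′ difference of 0.91, against 0.05 to 0.19 in the other ex vivo samples. With muscle as a covariate and without animals 3 and 4, in that order, Atp5g1 differed by 0.30 and 0.28, Uqcrc1 by 0.37 and 0.35, Ndufb7 by 0.39 and 0.39 and Ndufa5 by 0.35 and 0.35, while Cycs turned to -0.20 and -0.22. The adipocyte list had a median of 0.08 ex vivo, with 8 of 10 genes higher, and differed by 0.82, -0.59, 0.45 and -0.36 by animal. When all 22 samples shared 1 estimate of the spread, 3 of 78 subunits passed the threshold ex vivo, against 661 of all 22626 probes, a similar share. The subunits were Ndufb7 (adjusted p = 0.0303), Uqcrc1 (adjusted p = 0.0365) and Atp5g1 (adjusted p = 0.0381).

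The stretch effects of the settings came from different animals, so they were compared between animals. On average 72 subunits were higher in stretched tissue in both settings, and 0 were higher in all 7 and all 4 pairs. Only Sdhd was higher in all 7 in vivo pairs, so no other member could meet the latter. The difference of the stretch effect itself, ex vivo minus in vivo, had a median of 0.04 over the subunits, with 48 above 0. None of the subunits passed the test of this difference (0.177% of all probes did). At an unadjusted p under 0.05, 1 subunit (1.3%) was higher ex vivo, against 8.56% of all probes, and 3 (3.8%) were lower, against 6.74%. The former was Atp5g1, at 0.41 ± 0.16 (adjusted p = 0.246). The latter were Cox4i2 at -0.30 ± 0.11, Ndufv3 at -0.32 ± 0.13 and Cox7c at -0.42 ± 0.19, with adjusted p of 0.224, 0.265 and 0.308.

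The muscle isoforms of complex IV, left out of the members, are given for comparison. In vivo Cox6a2 differed by 1.25 ± 0.44, Cox7a1 by 0.98 ± 0.34 and Cox8b by 1.18 ± 0.44, and ex vivo by 1.45 ± 0.56, 0.07 ± 0.48 and 0.94 ± 0.83. In vivo animal 5, where the muscle list differed most, they differed by 4.08, 3.09 and 3.94, against subunit medians of 0.28 to 0.51 for the complexes. In animal 2 they differed by 0.00, 0.10 and 1.45 while the subunit median was 0.24.

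Other mitochondrial genes showed differences of similar size, and none of their members passed the test in either stretch comparison. Citric acid cycle and pyruvate dehydrogenase genes had medians of 0.20 in vivo (15 of 15 higher) and 0.21 ex vivo (13 of 15), led by Idh3a at 0.43 ± 0.12 in vivo and Suclg1 at 0.45 ± 0.13 ex vivo, both enzymes of the cycle. Fatty acid oxidation genes had 0.25 (16 of 17) and 0.16 (15 of 17), with the transferase Cpt2 at 0.41 ± 0.10 in vivo, higher in 7 of 7 animals, and the carnitine carrier Slc25a20 at 0.24 ± 0.09 ex vivo. Genes of the mitochondrial ribosome had 0.09 (44 of 47) and 0.18 (44 of 47), with the small subunit protein Mrps7 at 0.28 ± 0.07 and the large subunit protein Mrpl2 at 0.33 ± 0.09. Assembly factors of the complexes had 0.10 (30 of 32) and 0.09 (26 of 32), with Uqcc1, needed for complex III, at 0.27 ± 0.08 and Ndufaf4, needed for complex I, at 0.39 ± 0.10. Carriers and outer membrane genes had 0.12 (17 of 20) and 0.13 (16 of 20), with the pore protein Vdac1 at 0.32 ± 0.10 in vivo and the muscle creatine kinase Ckmt2 at 2.17 ± 0.97 ex vivo.

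Regulators of mitochondrial biogenesis and glycolytic genes stood differently. The regulators had medians of 0.01 in vivo (8 of 14 higher) and -0.04 ex vivo (5 of 14). The coactivator Ppargc1a differed by 0.59 ± 0.20 in vivo and 0.22 ± 0.34 ex vivo, its relative Ppargc1b by 0.27 ± 0.09 and 0.42 ± 0.15. Nrf1, whose product binds the NRF1 core printed above, differed by -0.04 ± 0.06 in vivo and by -0.41 ± 0.13 ex vivo, below 0 in 4 of 4 animals. Glycolytic genes had a median of 0.27 in vivo (10 of 13 higher) and -0.28 ex vivo (2 of 13). No regulator or glycolytic gene passed the test in either stretch comparison or for the difference of the stretch effect. For glycolysis the lowest adjusted p were 0.172 in vivo, 0.352 ex vivo and 0.0559 for that difference (limma, Benjamini-Hochberg). Hk2, a hexokinase, and Ldha, a subunit of lactate dehydrogenase, were higher in 7 of 7 animals in vivo, by 0.60 ± 0.15 and 0.36 ± 0.10, and Pgam1 and Pfkp, enzymes of glycolysis, were lower in 4 of 4 animals ex vivo, by -0.32 ± 0.05 and -0.67 ± 0.17.

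**Figure D4:**
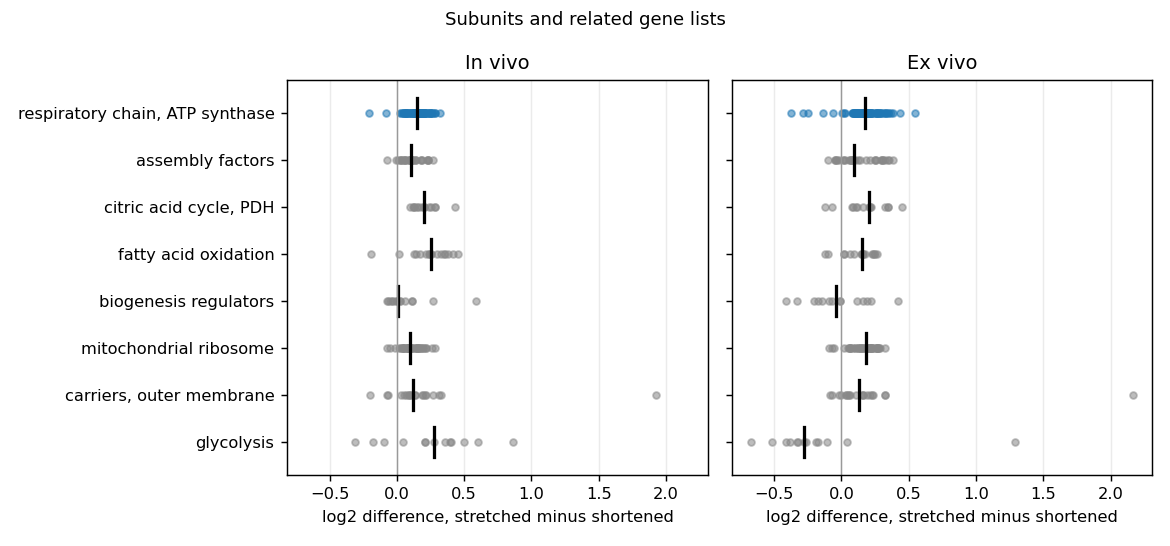
Log2 difference between stretched and shortened tissue (x axis) of each gene of 8 lists (y axis), in vivo and ex vivo; points are genes and bars are list medians. The subunits have medians of 0.15 and 0.18, the regulators of biogenesis 0.01 and -0.04, and glycolysis 0.27 in vivo and -0.28 ex vivo.

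The largest differences in subunit expression were between the settings, which asks how tissue held ex vivo differed from tissue held in vivo. Animals, setting and array normalization change together here and cannot be told apart, so values are given after a shift by the median difference of all probes (-0.38 in shortened and in stretched tissue). In shortened tissue 59 of 78 subunits passed the test, 54 lower and 5 higher ex vivo, with a median of -0.41. Of all probes 67.3% passed, 33.9% lower and 33.5% higher, against 69.2% of the subunits lower and 6.4% higher. For 41 subunits (52.6%) every ex vivo sample lay below every in vivo sample after the shift, against 26.9% of all probes. The 3′ to 5′ difference of the Gapdh probes also differed between the settings, 0.11 to 3.61 in vivo against 0.05 to 0.19 in 7 of the 8 ex vivo samples and 0.91 in the other, and its part in the result was not tested. As deposited, the mean over the subunits in shortened tissue was 11.07 ± 0.17 (SD, n = 7) in vivo and 10.26 ± 0.07 (SD, n = 4) ex vivo.

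The differences were not equal over the complexes. Complex II lay lowest, with a median of -0.99 and 3 of 4 subunits lower, followed by complex I with -0.59 (26 lower and 1 higher of 33), complex III with -0.53 (7 and 1 of 9), complex IV with -0.33 (8 and 1 of 14) and complex V with -0.25 (10 and 1 of 17). The complex IV median includes the dim Cox4i2, Cox6b2, Cox7c and Cox8c. The medians of the complexes were not tested against each other.

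In complex II, Sdhd read 11.17 to 11.54 in vivo (median 11.38) and 9.91, 9.82, 9.63 and 9.79 ex vivo in shortened tissue, far apart even against the shift, and fell by 1.19 ± 0.08 (adjusted p = 8.19e-08). Sdhb, with 11.08 to 11.65 in vivo (median 11.40) and 9.98, 9.97, 9.78 and 9.93 ex vivo, fell by 1.12 ± 0.11 (adjusted p = 1.27e-06), and Sdha fell by 0.87 ± 0.13. The exception was Sdhc, at 0.29 (adjusted p = 0.0521).

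In complex I the membrane arm subunit Ndufc1, the lowest of all members, fell by 1.43 ± 0.11 (adjusted p = 2.51e-07), from 11.03 to 11.59 in vivo (median 11.40) against 9.68, 9.54, 9.52 and 9.46 ex vivo. Ndufa1 and Ndufb2, also of the membrane arm, fell by 1.17 ± 0.09 and 1.16 ± 0.10. The core iron-sulfur subunits Ndufs7 and Ndufs8 fell by 0.83 ± 0.08 and 0.99 ± 0.12. Of the further accessory subunits, Ndufb10 fell by 1.00 ± 0.15, Ndufb8 by 0.81 ± 0.11, Ndufb9 by 0.78 ± 0.11, Ndufb11 by 0.75 ± 0.11, Ndufb7 by 0.73 ± 0.10, Ndufa6 by 0.68 ± 0.10, Ndufa13 by 0.68 ± 0.08, Ndufb5 by 0.59 ± 0.09 and Ndufa10 by 0.52 ± 0.08. Ndufb1 rose instead, by 1.01 ± 0.10 (adjusted p = 1.79e-06), on a dim probe that read 6.50 to 6.99 in vivo (median 6.81) and 7.51, 7.39, 7.38 and 7.46 ex vivo.

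In complexes III to V the lowest p was that of Cox6c, a small subunit of complex IV. It read 12.71 to 13.05 in vivo (median 12.85) and 11.40, 11.45, 11.21 and 11.41 ex vivo and fell by 1.13 ± 0.07 (adjusted p = 3.86e-08). Cox8a fell by 1.15 ± 0.09, Uqcrfs1 by 0.96 ± 0.11, Uqcr10, a small subunit of complex III, by 0.82 ± 0.10, Atp5a1 by 0.62 ± 0.07 and Atp5h by 0.61 ± 0.06.

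Apart from Ndufb1, 4 members were called higher ex vivo in shortened tissue after the shift. Uqcrb, which read 12.78 to 13.02 in vivo (median 12.91) and 13.17, 13.15, 13.10 and 13.15 ex vivo, rose by 0.61 ± 0.05 (adjusted p = 3.23e-07) and lay above the in vivo samples even as deposited. Cycs rose by 0.65 ± 0.18 (adjusted p = 0.00678) and the dim Cox4i2 by 0.55 ± 0.11. As deposited, their means were 11.20 and 5.42 in vivo and 11.47 and 5.59 ex vivo. Atp5mpl, a small subunit of ATP synthase, was higher by 0.29 ± 0.07 only through the shift. Its deposited mean was 10.75 in vivo and lower, 10.65, ex vivo. Without the shift, 2 subunits were called higher.

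Stretched tissue gave a like picture between the settings. There 49 subunits passed, 45 lower and 4 higher, with a median of -0.39, against 64.6% of all probes, 32% lower and 32.6% higher. For 24 subunits (30.8%) the ex vivo samples all lay below the in vivo samples after the shift, against 23.4% of all probes. Of the members, 48 passed in both tissues, 44 lower and 4 higher. The share of all probes that passed in both tissues was not counted. The members with the lowest values were Ndufc1, which fell by 1.36 ± 0.19, Sdhd, which fell by 1.24 ± 0.11, Cox8a, which fell by 1.19 ± 0.14, and Ndufb3, of the membrane arm of complex I, which fell by 1.17 ± 0.18. Cycs did not pass here (0.41, adjusted p = 0.172), and its signals of 10.55 and 10.49 in in vivo animal 1 were the lowest. Without that animal, 60 subunits passed in stretched tissue and 63 in shortened tissue, against 15275 and 15490 of 22626 probes.

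**Figure D5:**
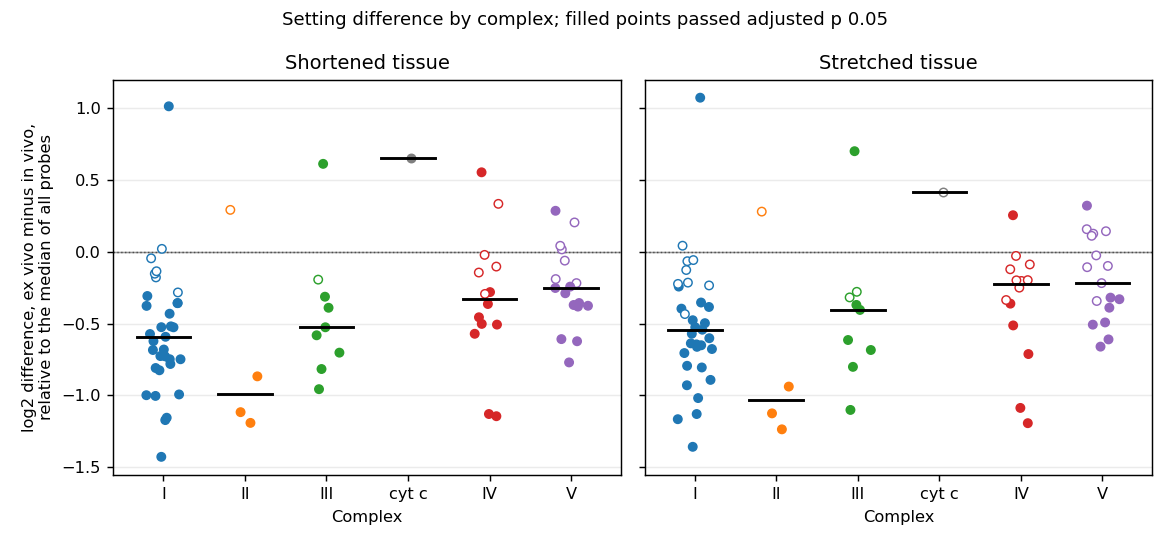
Log2 difference of each subunit between ex vivo and in vivo tissue (y axis), relative to the median of all probes, by complex (x axis), in shortened and stretched tissue; filled points passed an adjusted p of 0.05 and bars are medians. Complex II lies lowest with medians of -0.99 and -1.03, and Ndufb1, Uqcrb and Cycs lie above 0 in both tissues.

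Other gene lists differed between the settings as well, in shortened tissue on the same shifted scale. Fatty acid oxidation genes had a median of -0.999, with 15 of 17 called lower and 0 higher, and citric acid cycle genes -0.71, with 10 of 15 lower and 0 higher. Assembly factors had -0.36 (16 lower and 7 higher of 32), carriers -0.26 (10 and 4 of 20), the mitochondrial ribosome -0.11 (14 and 7 of 47) and the regulators of biogenesis 0.21 (4 and 7 of 14). Glycolytic genes had 1.98, with 12 of 13 called higher and 1 lower. Of the cell type markers, macrophage markers had a median of -2.71 (8 of 9 called lower) and white adipocyte markers -1.76 (8 of 10 lower). Fibroblast markers had -0.74 (7 lower and 1 higher of 10) and endothelial markers 0.86 (3 higher and 1 lower of 6). Skeletal muscle markers had -1.76, but only 2 of 16 were called lower, under the 33.9% of all probes. The lower calls of the mitochondrial ribosome and of the regulators also lay under that share. As deposited, the macrophage list mean ran from 11.66 to 11.95 in vivo and from 8.57 to 9.37 ex vivo, and the adipocyte list mean from 9.50 to 11.95 and from 8.17 to 9.96. Their part in the differences between settings was not tested.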

How the data were processed

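RNA of 22 tissue pieces was labelled as biotin cRNA and measured on arrays. The authors deposited log2 signals, made with RMA and the affy package per the submitters' processing notes, where no versions are given. Samples were grouped by title. The number in the title was taken as the animal, since the design states a comparison within animals, and deviations of same-numbered pieces correlated with r of 0.385 to 0.867 in vivo and 0.109 to 0.284 ex vivo. The piece correlated best with its own number in 5 of 7 animals in vivo but in only 2 of 4 ex vivo, so the ex vivo pairs rest mainly on the labels. Replicates were animals, and their number limits the precision.

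After 64 control probes were left out, 22626 probes entered lmFit and eBayes with trend (limma 3.58.1, R 4.3.3), with Benjamini-Hochberg adjustment over them and a threshold of 0.05. Within each setting the fit of stretched against shortened tissue blocked on animal. The stretch effects were compared in 1 fit of all samples with 11 animal blocks, and the settings with no block after a shift by the median difference of all probes. The fit was tested on simulated data.

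Symbols came from the supplied probe table and RefSeq; 20380 probes carried 1 symbol, 691 several and 1555 none, and only the first were used for genes. Counts of members and list medians have no test. The members, gene lists, marker lists and the rule for named genes were chosen with earlier results of these data known. The rule names members past the threshold (up to 25), per complex and stretch comparison the 3 lowest p and the member farthest against the median, catalytic subunits and isoforms, and per list the lowest p. Uqcr11 and Cox5b in vivo, and Sdhc, Cycs, Cox4i2 and Atp5mpl between settings, were named outside it after their values were seen.

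Alternatives were quantile normalization, centring on array medians, probes with a mean of at least 6, eBayes without trend or robust, a threshold of 0.10, the mean of all probes of a gene, no replicate block, all samples in 1 fit, muscle content as a covariate, subsets of animals and each animal left out. Values with no shift between settings were added after seeing the data.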

Additional observations from a re-analysis of the deposited data

Results flagged for a closer look

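Single samples that stood apart from the rest of their group by the gap to the next sample were looked for in 192 sets of values of members and complexes, and 20 sets (10.4%) held one; chance gives about 1 in 20. Most were the stretched in vivo piece of animal 1, which lay low. There the mean over the subunits was 10.76 (others 11.14 to 11.41), the mean of complex II 10.76 and of complex III 10.91. Single subunits read 11.13 for Ndufb7, 10.76 for Ndufc1, 11.23 for Sdha, 11.05 for Sdhb, 10.46 for Uqcrc1, 10.60 for Uqcrfs1, 10.49 for Cycs, 12.135 for Cox4i1, 12.35 for Cox5b and 12.56 for Cox6c. The subunits share this sample, so these are not separate findings. In the shortened in vivo piece of the same animal Atp5b lay low at 12.05 (others 12.38 to 12.60).

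In the stretched in vivo piece of animal 3, Cox6b2 lay low at 5.89 (others 6.39 to 6.68). Ex vivo, the stretched piece of animal 4 lay high in the mean of complex III at 10.85 (others 10.64 to 10.67), and that of animal 1 lay low in Cycs at 10.94 (others 11.68 to 11.80). In shortened ex vivo tissue Ndufa9 lay low in animal 3 at 9.55 (others 9.83 to 9.85) and Cox6b2 lay high in animal 1 at 5.83 (others 5.599 to 5.632). The stretch difference of Uqcrc1 was 0.0942 in ex vivo animal 2 against 0.52 to 0.60 in the others. For 0 members did every pair in vivo move one way and every pair ex vivo the opposite way. Only Sdhd moved one way in every in vivo pair, so no other member could meet this.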

How the results depend on the processing

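In vivo, 0 subunits were called under the alternatives run. The median was lowest with muscle content as a covariate (0.08), and leaving out 1 animal gave 0.12 (animal 5) to 0.19 (animal 1). Ex vivo, 0 were called except with all samples in 1 fit (3 called). The median was lowest without animals 3 and 4 (0.09) and with muscle content as a covariate (0.095), and leaving out 1 animal gave 0.14 (animal 3) to 0.24 (animal 1). For the difference of the stretch effect 0 were called throughout, and the median ran from -0.00 to 0.08. Between settings, leaving out 1 animal gave 54 to 63 called and medians of -0.47 to -0.38 in shortened tissue, and 40 to 60 and -0.46 to -0.35 in stretched tissue. In these fits 14222 to 15490 and 13516 to 15275 of 22626 probes were called. With no shift the medians were -0.79 and -0.77, since the shift itself is left out. There 72 and 69 subunits were called, against 16550 and 15979 of 22626 probes. With no replicate block, the stretch medians stayed at 0.15 and 0.18 and 0 were called in either setting. The subunits higher at an unadjusted p under 0.05 then numbered 4 in place of 48 in vivo, and 30 in place of 31 ex vivo. The shares of all probes at that p without the block are not given here.

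Among the 35 subunits named in vivo and 38 named ex vivo, the values below changed sign, none of them called. Over all 78 subunits, muscle content as a covariate lowered the number above 0 from 76 to 67 in vivo and from 73 to 61 ex vivo. With muscle content as a covariate in vivo, Atp5g1 was at -0.0275 and Atp5g2 at -0.0282, and Cox4i2 at -0.0268 in animals 4 to 7. With muscle content as a covariate, and without animals 3 and 4, ex vivo values were -0.0612 and -0.0672 for Atp5a1, -0.0751 and -0.0891 for Atp5b, -0.0084 and -0.0213 for Cox4i1, 0.0153 and 0.0217 for Cox8c, -0.20 and -0.22 for Cycs, -0.0105 and -0.0264 for Sdha, -0.029 and -0.0256 for Sdhd, -0.0504 and -0.0648 for Uqcrfs1, and -0.0377 and -0.0428 for Uqcrh. Leaving out 1 ex vivo animal gave ranges of -0.0352 to 0.251 for Cycs, -0.0228 to 0.0547 for Uqcrh and -0.0833 to 0.142 for Cox6b2, each turned below 0 by at least 1 animal left out. The ex vivo fits with the muscle covariate and without animals 3 and 4 rest mainly on animals 1 and 2. They are not separate checks of each other. The cause of the sign changes was not tested. Of 200 further values for named members between settings in each tissue, 198 and 197 kept direction and call. The named members were the 25 called ones of smallest p, so this was likely beforehand. Of all called members, the fewest kept the call with the mean of all probes in shortened tissue (50 of 59). In stretched tissue the fewest did so without ex vivo animal 2 (40 of 49).

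Among the limits, 4 animals ex vivo and array signals of whole tissue bound what can be seen, 5 members had probes with a mean under 9, and stretch force and duration are unknown here.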

Other observations

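Subunits read by probes that carry several gene symbols, left out of the members, had similar values. Of 8 such probes, 8 were higher in stretched tissue in vivo, by 0.04 to 0.27 with a median of 0.15, and 7 ex vivo, by -0.11 to 0.45 with a median of 0.28; the lowest adjusted p were 0.172 and 0.352 (limma, Benjamini-Hochberg). The highest ex vivo value was that of the probe for Ndufa11 and Ndufa11b, of complex I, at 0.45 ± 0.09, higher in 4 of 4 animals. Between settings, in shortened tissue and after the shift, this probe fell by 1.22 ± 0.09 ex vivo (adjusted p = 1.41e-07), and both probes that carry Ndufb4 fell by 0.54 ± 0.11 and 1.08 ± 0.11. Of the 8 probes 3 were higher ex vivo: a dim probe for Yjefn3 and Ndufa13 rose by 0.43 ± 0.13 (adjusted p = 0.012), and those that carry Ndufab1 and Ndufs5 differed by 0.28 ± 0.24 and 0.09 ± 0.13 (adjusted p = 0.326 and 0.536).

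A probe for ND5, a complex I subunit encoded in the mitochondrial genome, differed by 0.14 ± 0.06 in vivo (5 of 7 animals higher, adjusted p = 0.236) and by 0.20 ± 0.28 ex vivo (2 of 4, adjusted p = 0.827). Between settings it differed by -0.15 ± 0.15 after the shift (adjusted p = 0.385), with means of 12.001 in vivo and 11.47 ex vivo as deposited.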
